A study of Mus musculus with 6 samples.

Results

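Very long genes were taken as autosomal RefSeq genes whose transcript covers 200 kb or more of the genome, from the start of the first exon to the end of the last one. Of the 20275 autosomal genes in the files, 860 (4.24%) met this rule, and 19415 were shorter. Several transcripts of 200 kb or more were listed for 184 of the 860 genes, and the one with most counts over all libraries then stood for its gene. The rule uses annotation only, so no expression value chose the members. RNA-seq was performed in V6.5 murine embryonic stem cells (ESCs, C57BL/6-129) that carried a lentiviral short hairpin RNA (shRNA) and had been grown on irradiated embryonic fibroblast feeders before a passage off them. There was 1 library with a control hairpin against GFP, 1 with a hairpin against SMC1, a cohesin subunit, 2 with different hairpins against CAPH2, a condensin II subunit, and 2 with different hairpins against SMC2, which condensin I and II share. All 6 libraries, GFP included, came from infected cells kept for 24 hours before selection, then for 48 hours in 0.5 µg/ml and 48 hours in 1 µg/ml puromycin. The knockdowns were of a mixed infected population, and no uninfected library was used here.

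A very long gene is mostly intron. RNA polymerase II can need hours to cross the longest ones, and the pre-mRNA must be spliced over great distances. Several such genes lie at common fragile sites, which break when replication is slowed. Many of the longest mammalian genes encode synaptic adhesion proteins and ion channels and are used in neurons. Cohesin and condensin are ring-shaped complexes that shape chromosomes, cohesin by holding loops and sister chromatids and condensin by compacting chromatin, and the comparison asks how RNA from the longest transcription units stood when either complex was reduced.

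The spans of the 860 genes ran from 200.1 to 2241 kb with a median of 313 kb. There were 401 genes of 200 to 300 kb, 293 of 300 to 500 kb, 127 of 500 to 1000 kb and 39 above that. Exons filled 1.38% of the span at the median very long gene and 14.5% at the median shorter gene. The median exon number was 16 in very long genes and 6 in shorter genes, and the median exonic length was 4784 and 2505 bases.

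The stretch upstream of very long genes was richer in G and C than their bodies. In the 250 bases before the annotated start, the median GC content was 62.4% in very long and 56.4% in shorter genes, whereas over the whole gene it was 41.4% and 46.2%. The GC box GGGCGG, the core of the SP1 site, was found on either strand in 54.5% of these stretches of very long genes and in 45.9% of those of all autosomal genes. Among genes at or above 1 RPKM in GFP, the shares were 64.7% of very long and 63.0% of shorter genes. The letters TATAAA were found on either strand in 5.00% and 11.5%, and CCAAT in 30.9% and 34.5%, and among the expressed genes TATAAA in 3.11% and 5.88% and CCAAT in 29.9% and 35.7%. These are matches of letters, and none of these motifs contains another. The mm9 sequence is shown, 5′ to 3′ on the gene's own strand with GC boxes in capitals, for the genes with the 2 largest increases and the 2 largest decreases in the SMC1 library, to show how unlike these starts are. Sema3e lies on the plus strand (chr5:14025026-14025275), Lpp on the plus strand (chr16:24393186-24393435), Cobl on the minus strand (chr11:12364964-12365213) and Dner on the minus strand (chr1:84692797-84693046).
Sema3e: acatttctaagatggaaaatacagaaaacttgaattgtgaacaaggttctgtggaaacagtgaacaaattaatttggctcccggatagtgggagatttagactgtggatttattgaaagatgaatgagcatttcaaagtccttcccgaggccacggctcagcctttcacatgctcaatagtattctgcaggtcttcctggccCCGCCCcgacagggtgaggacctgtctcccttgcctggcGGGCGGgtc
Lpp: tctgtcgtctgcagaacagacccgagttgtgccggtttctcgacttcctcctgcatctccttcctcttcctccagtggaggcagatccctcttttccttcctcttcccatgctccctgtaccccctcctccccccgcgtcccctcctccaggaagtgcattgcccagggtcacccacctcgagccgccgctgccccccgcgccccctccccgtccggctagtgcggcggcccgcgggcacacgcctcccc
Cobl: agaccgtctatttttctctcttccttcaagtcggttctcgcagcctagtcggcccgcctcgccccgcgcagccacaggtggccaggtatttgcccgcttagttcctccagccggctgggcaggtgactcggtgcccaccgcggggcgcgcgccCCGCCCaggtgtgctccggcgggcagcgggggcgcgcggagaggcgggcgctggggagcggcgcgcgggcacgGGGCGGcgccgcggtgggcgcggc
Dner: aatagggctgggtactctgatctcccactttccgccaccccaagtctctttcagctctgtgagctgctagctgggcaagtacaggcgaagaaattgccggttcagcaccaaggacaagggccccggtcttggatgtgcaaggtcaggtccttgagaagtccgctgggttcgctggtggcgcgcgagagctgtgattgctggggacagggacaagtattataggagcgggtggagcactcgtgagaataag
Sema3e and Cobl each held 2 GC boxes in this stretch, although they lie at opposite ends of the range of changes with SMC1. Lpp and Dner held none. CG pairs numbered 7 in Sema3e, 18 in Lpp, 36 in Cobl and 11 in Dner.

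The libraries held between 18823247 and 23324537 reads behind the deposited RPKM values (reads per kilobase of exon, scaled to the reads of the library). RPKM of Smc1a was 36.1 in GFP and 14.4 in SMC1, and RPKM of Ncaph2 was 80.2 in GFP and 16.9 and 27.9 in the CAPH2 libraries. RPKM of Smc2 was 26.6 in GFP and 18.8 and 19.1 in the SMC2 libraries, so this target stood closest to its control level. All 8 ESC markers examined (among them Pou5f1, Nanog and Sox2) had counts in GFP, and their summed RPKM was 3273 in GFP, 1785 in SMC1 and 2712 to 2920 in the condensin libraries. All 10 markers of feeder fibroblasts were also counted in GFP, with a summed RPKM of 48.8, against 102 in SMC1, where all 10 were higher. It was 77.0 and 53.1 in the CAPH2 libraries and 59.8 and 53.6 in the SMC2 libraries. No marker was at 0 counts in GFP. Markers of primitive endoderm summed to 177 in GFP, 287 in SMC1 and 163 to 208 in the condensin libraries, and neural markers to 107, 143 and 108 to 124. A change in the share of cells of a type and a change in RNA per cell cannot be told apart in such bulk libraries. The part of these markers' cells in the values below was not tested.

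Most very long genes were under 1 RPKM in the control cells. The minimum used for changes, 1 RPKM in GFP, was reached by 354 of 860 very long genes (41.2%) and by 59.1% of shorter genes. The share fell with span, from 55.1% of the genes of 200 to 300 kb to 34.1%, 22.8% and 10.3% in the next longer groups. Of the 506 genes under the minimum, 162 stayed below 0.1 RPKM in every library and 20 had no count in any of them. Expressed very long genes had a median of 5.40 RPKM in GFP, against 14.8 RPKM for shorter genes, and 26.8% of them reached 10 RPKM against 61.4%.

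Among the genes of 1000 kb and more, 4 of 39 were over the minimum. Lrp1b, which encodes a lipoprotein receptor-related protein (2057 kb), had 2 counts in GFP, 10 in SMC1, 2 and 0 in the CAPH2 libraries and 1 and 1 in the SMC2 libraries. Macrod2, which encodes an enzyme that removes ADP-ribose from proteins (1995 kb), was the longest gene over the minimum, with RPKM of 2.16 in GFP, 2.53 in SMC1, 1.93 and 2.02 in CAPH2, and 1.90 and 1.99 in SMC2. Its values lay close together in all 6 libraries.

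Some very long genes were read at moderately high levels. The highest were Snd1, a nuclease-domain protein of RNA metabolism, with 81.2 RPKM in GFP, Chchd3, a mitochondrial cristae protein (70.5 RPKM), the ubiquitin ligase gene Rnf220 (69.8), the adenosine kinase gene Adk (53.4) and Suclg2, a subunit of a citric acid cycle enzyme (50.8). The RPKM of Snd1 was 74.8 in SMC1, 67.9 and 69.2 in CAPH2, and 67.4 and 67.8 in SMC2, so GFP was the highest of the 6. The RPKM of Adk was 101 in SMC1, 63.4 and 57.8 in CAPH2, and 62.2 and 57.4 in SMC2. Adk thus stood apart in SMC1 alone, whereas Chchd3, between 63.2 and 75.4 RPKM in all libraries, did not.

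RNA of very long genes was more abundant with SMC1 than with the control hairpin, and slightly more abundant in the condensin libraries. The median RPKM of the 354 expressed genes was 5.40 in GFP, 6.70 in SMC1, 5.85 and 5.87 in the CAPH2 libraries and 5.68 and 5.94 in the SMC2 libraries. GFP was the lowest and SMC1 the highest of the 6. On the scale of each gene's log2 RPKM ratio to GFP, the median change was 0.32 with SMC1, which is 1.25-fold, with quartiles of -0.16 and 0.89. The same median over the 11469 shorter genes was -0.049. Because GFP and SMC1 had 1 library each, no change against GFP has a replicate check or a p-value.

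With SMC1, 239 of 354 very long genes (67.5%) were higher than in GFP, against 46.2% of shorter genes. An increase of at least 1 log2 unit, which is a doubling, was seen for 73 very long genes (20.6%), where 6.24% of all expressed genes passed the same limit. A decrease of that size was seen for 12 (3.39%), where the share of all genes was 8.57%. Of the 73 genes, 63 have exons that overlap no other annotated gene, as do 286 of all 354 expressed very long genes.

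The condensin changes were smaller and no very long gene reached 1 log2 unit in the average of the hairpins. Shares of all genes past that limit were 0.431% up and 0.643% down with CAPH2, and 0.220% up and 0.524% down with SMC2. The median change was 0.082 and 0.11 with the CAPH2 hairpins, a mean of 0.096 ± 0.020 (SD, n = 2 hairpins), and 0.072 and 0.18 with the SMC2 hairpins, a mean of 0.12 ± 0.074 (SD, n = 2 hairpins). Shorter genes had medians of -0.023 with CAPH2 and -0.040 with SMC2 (hairpins averaged). Both CAPH2 hairpins were above GFP for 196 very long genes (55.4%) and below for 92 (26.0%), where the shares of all expressed genes were 38.5% and 44.9%. Both SMC2 hairpins were above GFP for 196 (55.4%) and below for 90 (25.4%), where the shares of all expressed genes were 36.6% and 46.7%. The CAPH2 and SMC2 contrasts share the GFP library, so these counts are not independent of each other.

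The comparison of SMC1 with the 4 condensin libraries uses GFP only to choose the expressed genes and, for matched values, their classes, and not as the reference. RPKM in SMC1 lay above all 4 condensin libraries for 207 of 354 very long genes (58.5%), where 36.5% of all expressed genes did so. It lay below all 4 for 97 (27.4%), where the share of all genes was 42.0%. The median log2 ratio of SMC1 to the mean of the 4 was 0.23 for very long genes and -0.036 for shorter genes. That ratio was at least 1 log2 unit up for 41 very long genes (11.6%) and down for 12 (3.39%), where the shares of all genes were 3.91% and 5.52%. GFP lay below all 5 knockdown libraries for 146 very long genes (41.2%) and above all 5 for 55 (15.5%), where the shares of all genes were 26.0% and 33.0%.

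Median changes were higher in classes of longer span, starting well below 200 kb, and only with SMC1 was the longest class lower again. With SMC1 the median log2 change was -0.23 for genes under 10 kb, -0.089 at 10 to 25 kb, 0.024 at 25 to 50 kb, 0.18 at 50 to 100 kb and 0.27 at 100 to 200 kb. It was 0.33 at 200 to 500 kb and 0.23 at 500 kb and more (33 genes). With CAPH2 (hairpins averaged) these last classes, from 100 to 200 kb on, had medians of 0.075, 0.099 and 0.12. With SMC2 (hairpins averaged) they had 0.094, 0.11 and 0.16. Over all expressed genes, the Spearman correlation of span with the change was 0.27 with SMC1, 0.25 with CAPH2 and 0.29 with SMC2, and within the 354 very long genes it was -0.025, -0.0027 and -0.011. These correlations are over genes, which share the libraries and are not independent.

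**Figure D1:**
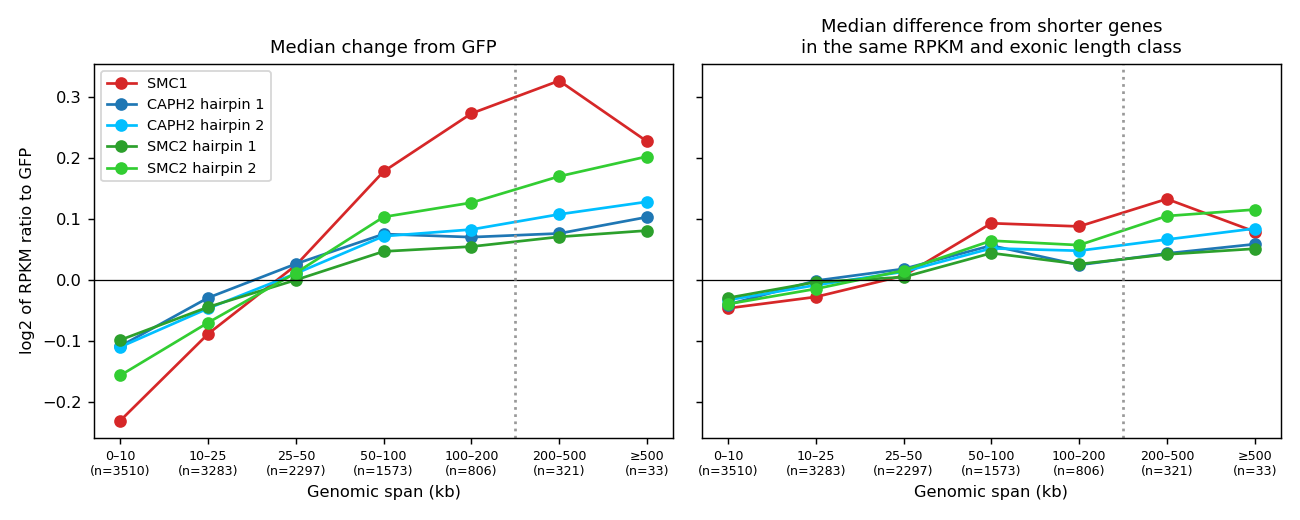
Median log2 RPKM ratio to GFP (left) and median difference from shorter genes of like RPKM and exonic length (right) in 7 classes of genomic span in kb, 1 line per knockdown library, n genes under each class. The dotted line marks 200 kb. All 5 lines climb from below 0 at under 10 kb, and with SMC1 the left panel reaches 0.33 at 200 to 500 kb and 0.23 above.

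Just inside the limit of 200 kb were Pcbp3 (200.1 kb), an RNA-binding protein gene with log2 changes of -0.27, -0.33 and -0.34 with SMC1, CAPH2 and SMC2, and Pbx3 (200.1 kb), a homeobox gene with 1.05, 0.18 and 0.17. Just outside it were Morc1 (199.7 kb), a gene of germ cells, with -2.81, -0.011 and -0.19, and Clec16a (199.5 kb), a gene of endosomal traffic, with 0.34, 0.20 and 0.17.

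Very long genes differ from shorter ones in more than span, and changes followed those traits too. They had lower RPKM, longer exonic sequence and lower exon GC content (median 48.7% against 51.3%). The Spearman correlation of exon GC content with the change over all expressed genes was -0.30 with SMC1, -0.51 with CAPH2 and -0.52 with SMC2. For the ratio of SMC1 to the condensin libraries it was -0.080. Each very long gene was therefore set against the median of the shorter genes in its class, among 10 classes of GFP RPKM and 3 of exonic length.

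After this matching the difference shrank to well under its unmatched size. The median difference was 0.13 with SMC1 (unmatched, 0.37), 0.069 with CAPH2 (0.13) and 0.072 with SMC2 (0.16). Means over the hairpins were 0.057 ± 0.014 for CAPH2 and 0.073 ± 0.044 for SMC2 (SD, n = 2 hairpins each). Very long genes lay above the median of their class in 57.1%, 57.9% and 60.7% of cases with SMC1, CAPH2 and SMC2. Against the 20 shorter genes nearest in RPKM and exonic length, a tighter match, the median difference was 0.036, 0.033 and 0.028. With exon GC content added to that match it was 0.042, 0.026 and 0.030, over 350 genes with a GC value. Means over the hairpins were then 0.019 ± 0.019 for CAPH2 and 0.021 ± 0.023 for SMC2 (SD, n = 2 hairpins each). The condensin means over the hairpins by this match were thus close to the SD between hairpins. For the ratio of SMC1 to the condensin libraries the difference was 0.078 by class and 0.064 with GC content.

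**Figure D2:**
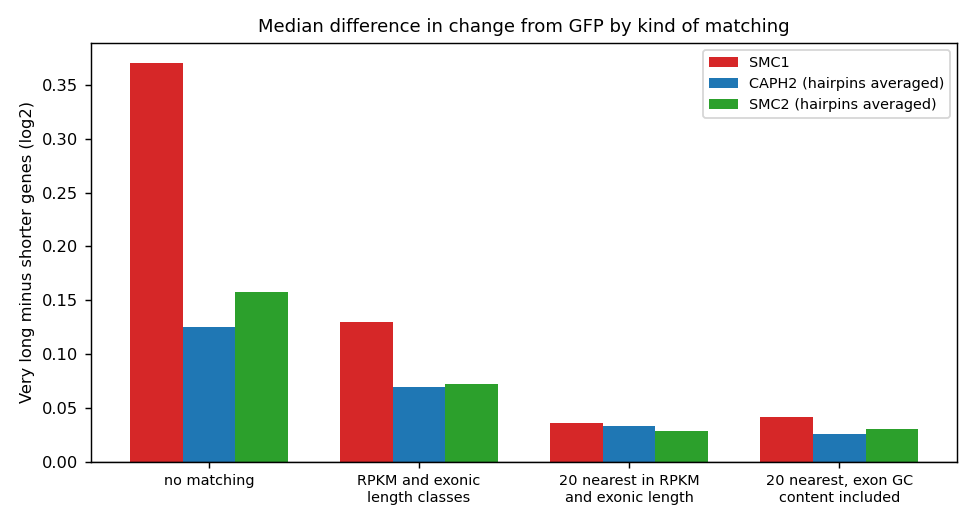
Median log2 change from GFP of the expressed very long genes minus that of shorter genes, by kind of matching, for SMC1 and for the hairpin averages of CAPH2 and SMC2. The bars fall from 0.37, 0.13 and 0.16 without matching to 0.042, 0.026 and 0.030 when the nearest shorter genes also share exon GC content.

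Very long and shorter genes were also compared within classes of GFP RPKM alone, without matching on exonic length or GC content. The difference was then largest among genes of low expression. In the group at 1 to 2 RPKM in GFP, 66 very long genes had a median log2 change of 1.00 with SMC1, against 0.15 in shorter genes. At 2 to 5 RPKM the medians were 0.46 and 0.16, at 5 to 10 RPKM 0.27 and 0.084, and at 10 to 20 RPKM 0.089 and -0.019. At 20 RPKM and more, the 39 very long genes had a median of -0.23, below the -0.15 of shorter genes. The low group also stood higher with CAPH2 (0.24, against -0.015) and with SMC2 (0.29, against -0.032). The GFP value enters both the class and the change, for very long and shorter genes alike: a low GFP reading puts a gene in a lower class and raises its change.

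**Figure D3:**
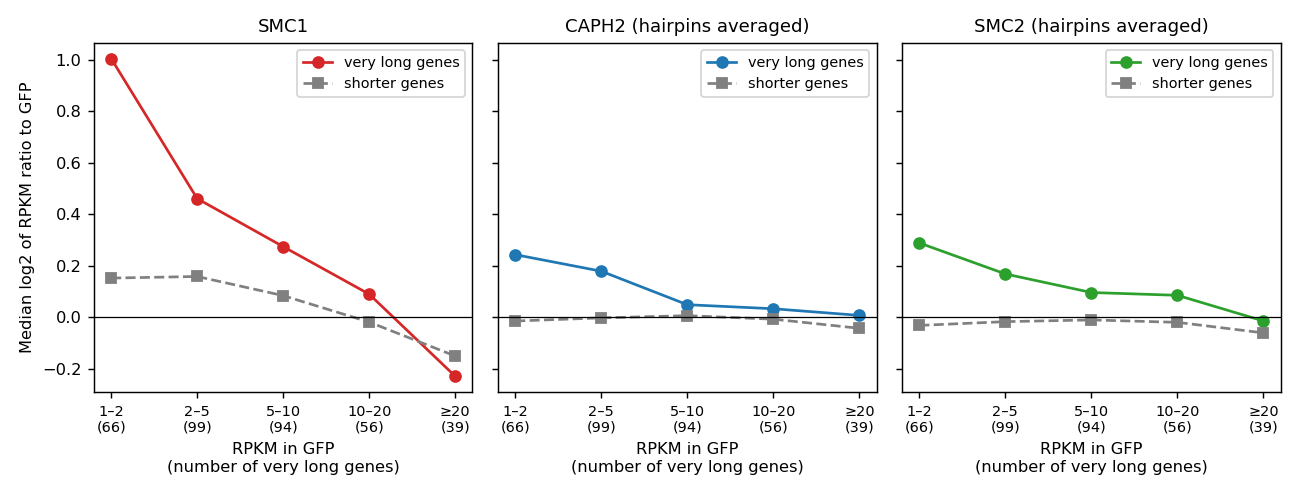
Median log2 RPKM ratio to GFP in 5 classes of GFP RPKM, for very long genes (coloured, number of genes in brackets) and shorter genes (grey), with SMC1 and with the CAPH2 and SMC2 hairpin averages. With SMC1 the coloured line falls from 1.00 at 1 to 2 RPKM to -0.23 at 20 RPKM and more, where it lies below the grey line.

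Exonic length and GC content were also taken one at a time. Among the genes in the highest of the 3 exonic length classes, which held 244 of the 354 very long genes, the median change with SMC1 was 0.49 in very long and 0.18 in shorter genes. In the lowest class, with 30 very long genes, the medians were -0.21 and -0.25. Very long genes stood above shorter genes in each of 5 equal classes of exon GC content with SMC1, by 0.28, 0.29, 0.37, 0.46 and 0.19 from the lowest class to the highest. Their own median passed from 0.48 in the lowest class to -0.067 in the highest, which held 15 of them.

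The largest increase with SMC1 was that of Sema3e. It encodes a secreted semaphorin that guides axons and vessels (chr5:14025276-14256689, plus strand, 231 kb). Its RPKM was 5.55 in GFP, 40.8 in SMC1, 8.61 and 7.82 in CAPH2, and 7.36 and 8.45 in SMC2. SMC1 stood far above the other 5 libraries, and GFP was the lowest. The log2 change was 2.88 with SMC1, 0.57 with CAPH2 and 0.51 with SMC2. Lpp, a LIM-domain protein of focal adhesions (599 kb), had 2.92 RPKM in GFP, 15.7 in SMC1, 4.57 and 3.83 in CAPH2, and 4.19 and 4.89 in SMC2. GFP was again the lowest library and SMC1 the highest, with a log2 change of 2.42 with SMC1.

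Fbn1, which encodes the microfibril protein fibrillin-1, is also one of the 10 fibroblast markers, and 20.1% of its exonic bases overlap another annotated gene. Its RPKM was 1.59 in GFP, 7.27 in SMC1, 3.23 and 2.42 in CAPH2, and 2.87 and 2.88 in SMC2. GFP was below all the others. Outside the families given only as group values, Fbn1 was among the 3 largest increases with each target. Cdk14, a cyclin-dependent kinase bound to the cell membrane, had 1.31 RPKM in GFP and 5.78 in SMC1, with 1.58 to 2.28 in the condensin libraries. Greb1l, a gene needed for kidney formation, had 1.75 RPKM in GFP and 6.97 in SMC1, and its condensin values of 1.53 to 2.09 lay around that of GFP. Plxdc2, a membrane protein with a plexin-like domain, had 2.74 RPKM in GFP, 10.8 in SMC1, 6.13 in CAPH2 hairpin 1 and 2.95 to 3.48 in the other condensin libraries, so its 2 CAPH2 hairpins were far apart.

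The largest decrease with SMC1 was in Cobl, an actin nucleator (chr11:12136679-12364963, minus strand, 228 kb). Its RPKM was 42.1 in GFP, 8.06 in SMC1, 36.0 and 38.7 in CAPH2, and 36.8 and 41.6 in SMC2. SMC1 alone stood apart, with a log2 change of -2.38 from 5091 counts in GFP and 871 in SMC1. Mitf, a transcription factor of pigment cells, had 3.95 RPKM in GFP, 1.18 in SMC1 and 3.15 to 3.77 in the condensin libraries. Btbd11, a protein with BTB and ankyrin domains, had 7.66 RPKM in GFP, 2.49 in SMC1 and 6.30 to 7.03 in the condensin libraries. Both followed the order seen for Cobl.

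The other 3 of the 6 largest decreases rested on low levels. Dner, a membrane protein with EGF-like repeats, had 1.30 RPKM in GFP, 0.32 in SMC1, 0.85 and 0.99 in CAPH2, and 0.42 and 0.92 in SMC2, from 102 counts in GFP and 22 in SMC1. Prdm16, a zinc finger regulator of brown fat and blood stem cells, had 1.31 RPKM in GFP, 0.40 in SMC1 and 0.73 to 1.05 in the condensin libraries. Igsf21, an immunoglobulin-domain protein of synapses, had 2.57 RPKM in GFP, 0.84 in SMC1, 1.28 and 1.72 in CAPH2, and 2.18 and 2.19 in SMC2. GFP was the highest and SMC1 the lowest library for all 3.

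**Figure D4:**
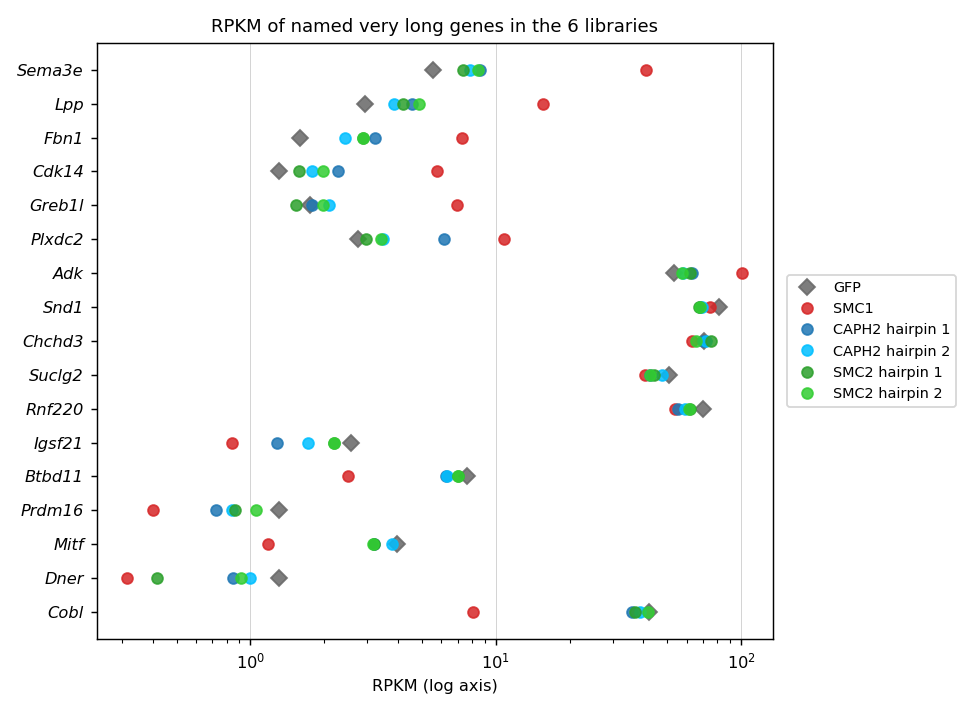
RPKM (log axis) in each of the 6 libraries, 1 point per library, with genes ordered by the SMC1 change. Shown are the 6 largest increases, the 6 largest decreases with SMC1 and the 5 genes with the highest GFP RPKM. Families given only as group values are left out. The red SMC1 point lies right of all others for Sema3e at 40.8 RPKM and left of all others for Cobl at 8.06 RPKM, while the highest genes show little spread apart from Adk.

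With the condensin hairpins the named genes differed less from GFP. Pid1, an adaptor protein with a phosphotyrosine-binding domain, had the largest CAPH2 increase, with 5.25 RPKM in GFP, 12.9 and 7.83 in CAPH2, 8.43 and 8.98 in SMC2 and 11.2 in SMC1. GFP was the lowest for Pid1, and the log2 change of 0.98 with CAPH2 leaned on hairpin 1. Grip1, a PDZ scaffold of glutamate receptors, followed with 1.53 RPKM in GFP and 3.17 and 2.65 in CAPH2. Klf12, a transcriptional repressor, had the largest SMC2 increase, with 1.84 RPKM in GFP, 3.42 and 3.62 in SMC2, 2.95 and 3.33 in CAPH2 and 3.88 in SMC1, a log2 change of 0.94 with SMC2. All 5 knockdown libraries were above GFP for both Grip1 and Klf12.

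Enox1 stood on opposite sides of GFP with cohesin and condensin hairpins. This gene, which encodes a cell-surface oxidoreductase, had 11.1 RPKM in GFP, 6.14 in SMC1, 21.7 and 17.6 in CAPH2, and 19.2 and 18.6 in SMC2. All 4 condensin libraries were above GFP and SMC1 was below it, and the log2 ratio of SMC1 to the condensin mean was -1.65. The largest condensin decreases beside Dner, Igsf21 and Prdm16 were in Slc39a11, a zinc transporter gene, Sil1, a cochaperone gene of the endoplasmic reticulum, and Fars2, a mitochondrial tRNA synthetase gene. Slc39a11 had 9.69 RPKM in GFP, 6.82 and 5.89 in CAPH2, 6.82 and 6.31 in SMC2 and 6.33 in SMC1. Sil1 had 14.1 RPKM in GFP and 9.50 to 10.9 in the 5 knockdown libraries, so for both genes GFP stood above a narrow group of all the others.

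The members were also grouped by what their proteins do, with 7 lists chosen by hand with earlier results of these data known, so the lists are descriptions. The share of all expressed genes past 1 log2 unit with SMC1 was 6.24% up and 8.57% down, and the median over all 11823 of them was -0.041. Of the 64 very long transcription and chromatin regulators, 41 passed the minimum, with a median log2 change of 0.75 with SMC1, 0.18 with CAPH2 and 0.27 with SMC2. With SMC1, 15 were up by at least 1 log2 unit and 3 were down. The largest change on this list was that of Lpp, described above as a protein of focal adhesions. Those up included Zfp423, a zinc finger factor, from 7.88 RPKM in GFP to 25.3 in SMC1, Gli3, an effector of Hedgehog signalling, from 4.27 to 11.5, and the homeobox gene Meis2, from 1.79 to 6.42. Besides Mitf and Prdm16, Bcas3 was down, from 20.3 to 9.71. The RNA-binding Rbfox2, at 37.3 RPKM in GFP, had 31.0 in SMC1 and 34.4 to 39.6 in the condensin libraries.

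Kinases, phosphatases and other signalling enzymes held 62 very long genes, of which 25 passed the minimum. Their median log2 change was 0.82 with SMC1, 0.15 with CAPH2 and 0.16 with SMC2, and 10 were up and 1 was down by at least 1 log2 unit with SMC1. Beside Cdk14, the phospholipase gene Plce1 had 1.08 RPKM in GFP and 3.48 in SMC1, and Camk2d, a calcium/calmodulin-dependent kinase gene, had 2.20 and 6.87. Camk1d, of a related kinase family, was the gene that was down, from 3.60 to 1.55. The receptor gene Igf1r had 6.98 RPKM in GFP, 11.6 in SMC1 and 5.74 to 7.21 in the condensin libraries, which lay around GFP.

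Cytoskeleton and scaffold proteins held 68 very long genes and 42 over the minimum, with median log2 changes of 0.44, 0.13 and 0.16 for SMC1, CAPH2 and SMC2. With SMC1, 6 were up and 1, Cobl, was down. Trio, a guanine nucleotide exchange factor, had 4.12 RPKM in GFP, 13.5 in SMC1 and 6.18 to 7.27 in the condensin libraries. Utrn, the dystrophin relative utrophin, had 17.0 RPKM in GFP, 27.7 in SMC1 and 20.5 to 21.8 in the condensin libraries. Both genes had GFP lowest and SMC1 highest. The focal adhesion gene Tns3 had 41.1 RPKM in GFP, 29.0 in SMC1 and 45.7 to 53.2 in the condensin libraries, an order like that of Enox1.

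Cell adhesion and axon guidance receptors numbered 56, of which only 7 passed the minimum, with a median of 0.53 with SMC1. Robo1, a receptor for Slit proteins, had 4.13 RPKM in GFP and 5.94 in SMC1, and the teneurin gene Tenm4 had 2.94 and 6.14. Ion channels and neurotransmitter receptors numbered 47, and 3 passed the minimum, with log2 changes from -0.42 to 0.52 with SMC1. Glycan, matrix and extracellular proteins numbered 37, with 9 over the minimum and a median of 0.55 with SMC1. Among them, Ltbp1, which binds latent TGF-beta, had 3.59 RPKM in GFP and 8.41 in SMC1, and Ext1, a heparan sulfate polymerase gene, had 24.1 and 35.3. The list also holds Prkdc, a kinase of DNA repair in the nucleus, among its 9 expressed genes. The 224 expressed members on none of the lists had a median of 0.23 with SMC1.

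Of 21 listed genes of common fragile sites, 8 passed the minimum, with a median log2 change of 0.42 with SMC1, -0.045 with CAPH2 and -0.080 with SMC2. RPKM was higher in SMC1 than in GFP for 6 of the 8 and lower for Wwox and Immp2l, with 2 up and 1 down by at least 1 log2 unit. Wwox, an oxidoreductase gene and the classic example, had 4.52 RPKM in GFP, 3.35 in SMC1, 3.98 and 4.63 in CAPH2, and 4.06 and 4.03 in SMC2. Immp2l, a mitochondrial peptidase gene of 1306 kb, had 4.67 RPKM in GFP, 2.04 in SMC1 and 3.22 to 4.02 in the condensin libraries, from 115 counts in GFP and 45 in SMC1. Auts2, a gene of neural development (1105 kb), had 7.45 RPKM in GFP, 10.6 in SMC1 and 6.69 to 8.01 in the condensin libraries. Nbea, a scaffold of vesicle traffic, had 1.11 RPKM in GFP, 4.20 in SMC1 and 1.68 to 2.16 in the condensin libraries. SMC1 was the lowest library for Wwox and Immp2l and the highest for Auts2 and Nbea. Pde4d, a cAMP phosphodiesterase gene of 1297 kb, is not on the list. It had 5.73 RPKM in GFP, 4.09 in SMC1 and 5.70 to 7.21 in the condensin libraries.

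**Figure D5:**
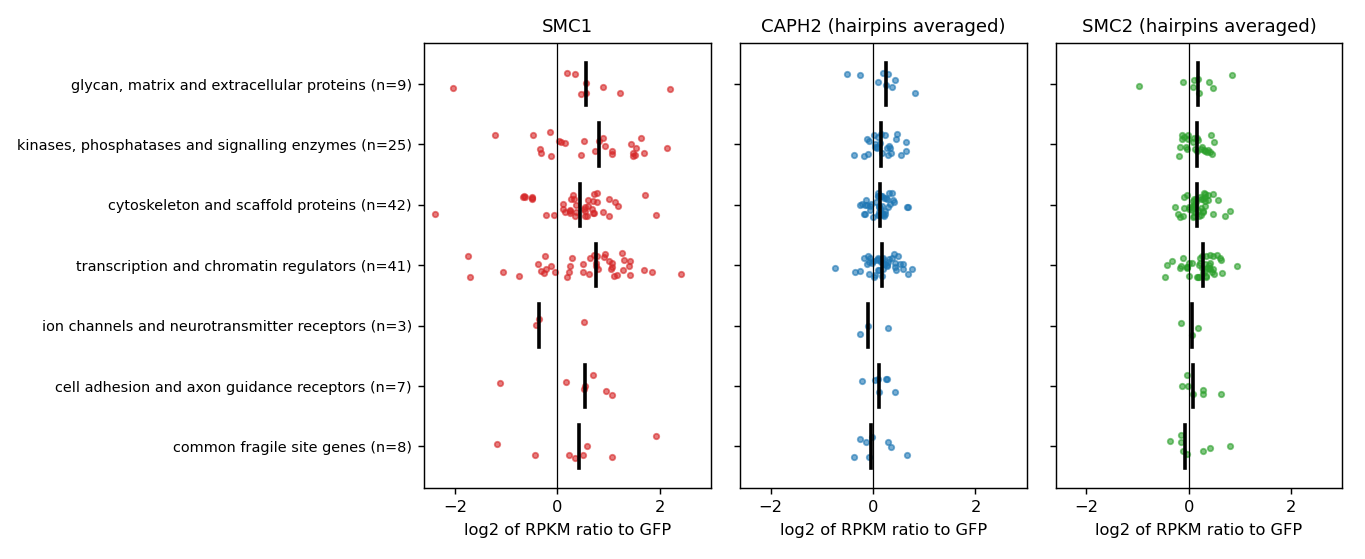
Log2 RPKM ratio to GFP of each expressed very long gene (points) on 7 hand-made lists, with the list median as a black bar, for SMC1 and the CAPH2 and SMC2 hairpin averages (n genes beside each list). With SMC1 the medians run from -0.36 for ion channels (3 genes) to 0.82 for kinases, phosphatases and signalling enzymes, and each list has points on both sides of 0.

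Many genes under the minimum had enough counts to be compared. Of the 195 with at least 100 counts over the 5 libraries other than SMC1, SMC1 had the highest RPKM for 151 (77.4%) and the lowest for 13 (6.67%). Among the 1151 shorter genes under the minimum with as many counts in those libraries, SMC1 was highest for 55.3% and lowest for 19.9%. This count minimum was chosen after seeing the data. With 100 counts over all 6 libraries, a minimum that SMC1 itself helps to meet, SMC1 was highest for 171 of 220 very long genes (77.7%) and for 58.6% of shorter genes. Of all 506 genes, 78 reached 1 RPKM in SMC1 (15.4%, against 7.09% of shorter genes). The counts were 25 and 18 in the CAPH2 libraries and 13 and 21 in the SMC2 libraries. Of the 354 expressed genes, 4 were under 1 RPKM in SMC1. Those counts were 5 and 5 in the CAPH2 libraries and 6 and 2 in the SMC2 libraries. Shorter genes were counted only for the rise in SMC1, so the other counts have no background share. Gfra1, a receptor of glial-derived neurotrophic factor, had 0.98 RPKM in GFP, 4.37 in SMC1, 1.64 and 0.89 in CAPH2, and 0.94 and 1.73 in SMC2. Hecw2, a ubiquitin ligase gene, had 0.35 RPKM in GFP, 3.15 in SMC1 and 0.51 to 0.77 in the condensin libraries, from 85 counts in GFP and 677 in SMC1. Genes chosen for an RPKM under 1 in GFP include those whose GFP reading happened to be low.

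Together the 860 genes supplied a small share of the RNA. With no minimum, they took 1.65% of the counts of all autosomal genes in GFP (95% binomial interval 1.64 to 1.65%), 2.23% in SMC1 (2.22 to 2.24%), 1.75% and 1.77% in CAPH2, and 1.75% and 1.89% in SMC2. The SMC1 share was 1.35 times that of GFP, and the condensin shares were 1.06 to 1.14 times that of GFP. The intervals cover counting error only. Genes under the minimum supplied 0.056% of the counts in GFP and 0.16% in SMC1.

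CAPH2 against SMC2 was the comparison with 2 libraries in each group, and it called no very long gene. Of 14493 genes tested with edgeR, 1 (0.0069%) passed an adjusted p of 0.05, and none of the 623 very long genes tested did. At an unadjusted p under 0.05 there were 35 very long genes (5.62%), where 3.07% of all genes tested passed, and 26 of the 35 were higher in SMC2. The direction was not counted over all genes. DESeq2 called 6 genes, none of them very long. It had 16 of 623 very long genes under an unadjusted p of 0.05, and 187 of all 14493 genes. The smallest p among very long genes was that of Kmt2c, a histone methyltransferase gene, with 2213 and 2018 counts in CAPH2 and 2728 and 2862 in SMC2, a log2 ratio of SMC2 to CAPH2 of 0.38 (SE 0.091, edgeR adjusted p = 0.998). Next was Ttn, the titin gene, with a log2 ratio of 0.53 (SE 0.14, edgeR adjusted p = 0.998). The median log2 ratio over the tested very long genes was 0.027, and without SMC2 hairpin 2 it was -0.021. Nothing says that the 2 libraries of a target came from separate cultures beyond their hairpins, so the p-values measure the spread between hairpins.

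Scaling to the ERCC spike-ins, which were added by cell number, raised every gene by 0.86 log2 units in SMC1, 0.63 and -0.047 in the CAPH2 libraries and 0.64 and 0.57 in the SMC2 libraries. The CAPH2 libraries thus differed from each other in spike-in recovery more than they differed in any median given here. On that scale 14 very long genes were lower in SMC1 than in GFP in place of 115, and 224 were up and 2 down by at least 1 log2 unit. All 12 genes down on the RPKM scale were still below GFP. Shorter genes are raised by the same shift and were not counted on that scale. Whether these counts are particular to very long genes was not tested. Increases and decreases above are relative to the total of each library, and with ERCC scaling the matched differences from shorter genes were 0.13 with SMC1, 0.067 with CAPH2 and 0.070 with SMC2.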

How the data were processed

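RNA-seq of 6 ESC libraries was used: GFP (1), SMC1 (1), CAPH2 (2 hairpins) and SMC2 (2 hairpins). Reads were aligned by the authors to mm9 with Bowtie, without splicing and with at most 2 alignments kept, so reads across exon junctions are lost. The authors deposited exonic read counts per RefSeq transcript, without strand. Isoforms with a common exon each receive its reads, and antisense or overlapping genes cannot be told apart. The deposited RPKM values scale these counts to exon length and library reads, not to spike-ins. No column of another sample was present.

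Symbols were matched by accession for 25353 rows and by position against GENCODE genes of mm9 for 572, and 148 stayed without one. Changes are log2 RPKM ratios to GFP with no pseudocount, where GFP has an RPKM of 1 or more. Exonic length was derived from counts and RPKM, and exon GC content from the annotation (350 of 354 expressed members). Matched differences subtract the median of shorter genes in 10 RPKM by 3 exonic length classes. CAPH2 was compared with SMC2 by the quasi-likelihood test of edgeR 4.0.16 with TMM factors, over all genes that had 10 or more counts in 2 or more libraries, with Benjamini-Hochberg adjustment. DESeq2 1.42.0 was an alternative. On simulated counts for this comparison over 14450 genes, edgeR recovered 99 of 100 genes changed by 1 log2 unit and 100 of 100 changed by 2, with 6 false calls of 205. The changed genes were drawn only from those with an expected mean of at least 100 counts. All genes were given the same variability between libraries. Recovery of genes with fewer counts, as many very long genes have, was not tested. Python 3.11.15 and R 4.3.3 were used.

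The members, lists and comparisons were chosen with earlier results of these data known. Named genes are, among members with a mean of at least 50 counts and outside families that are given only as group values (36 members, 5 expressed), the 6 largest increases and decreases with SMC1, the 4 largest each way with CAPH2 and with SMC2 where both hairpins had the same direction, and the 5 highest in GFP. The longest genes, those beside the limit, those under the minimum and the list examples were chosen after their values were seen. Alternatives were other scalings, filters, pseudocounts, rows and matching, and leaving out each hairpin. Genes with few counts are imprecise. A result for 1 gene is not reported here.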

Additional observations from a re-analysis of the deposited data

How the results depend on the processing

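The median log2 change of very long genes against GFP, main value 0.32 with SMC1, 0.10 with CAPH2 and 0.12 with SMC2, kept its sign under every alternative run. It moved by more than the spread between hairpins (SD; for SMC1 the larger SD of the condensin pairs) with ERCC scaling (1.19, 0.44 and 0.72), without a filter and with a pseudocount of 1 (0.19, 0.036 and 0.040), with a filter of at least 50 counts in GFP (0.40 with SMC1, 0.12 with CAPH2), and for CAPH2 with a mean RPKM filter (0.13) and a pseudocount of 1 (0.079). The matched difference, main value 0.13, 0.069 and 0.072, also kept its sign. It was 0.036 (SMC1) and 0.033 (CAPH2) against the 20 nearest shorter genes, 0.042 and 0.026 with exon GC content in that match, which was added after seeing the data, 0.18 and 0.086 with classes on the mean RPKM, and 0.22 and 0.097 against genes under 50 kb. Without a filter it was 0.015 with CAPH2 and 0.017 with SMC2. Members without exon overlap, also added after seeing the data, gave 0.13, 0.073 and 0.073. Leaving out a hairpin gave medians of 0.082 to 0.11 (CAPH2) and 0.072 to 0.18 (SMC2), and matched differences of 0.047 to 0.068 and 0.042 to 0.10. TMM factors and DESeq2 size factors moved none of these beyond the spread, nor did the row chosen for a gene. The cause of these movements was not tested, apart from ERCC scaling, which shifts all genes of a library alike.

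In CAPH2 against SMC2, 0 very long genes were called with library totals, without the filter, over all transcripts and with DESeq2. Leaving out each library in turn gave 0 to 11 calls (1 without CAPH2 hairpin 1, 11 without CAPH2 hairpin 2), where the lone library was assumed to vary like the other pair. A fit with the replicate number as a block (replicate block) called 3 of 623 very long genes: Kmt2c, Ttn and Tnrc6b. Of all 14493 genes tested it called 49, against 1 without the block. Deviations of same-numbered libraries had a correlation of 0.044 over 14493 genes. That value does not settle whether same-numbered libraries were handled together, which was not tested. The share of counts, 1.35 (SMC1), 1.07 (CAPH2) and 1.10 (SMC2) times that of GFP, was 1.34, 1.08 and 1.10 by summed RPKM and 1.39, 1.07 and 1.10 without the 10 genes with most counts.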

Other observations

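Very long genes of the X chromosome lie outside the autosomal rule and were measured in the same way. There were 43, of which 17 had an RPKM of 1 or more in GFP. Their median log2 change was 0.93 with SMC1, with 14 of 17 higher than in GFP. It was 0.47 and 0.42 with the CAPH2 hairpins and 0.25 and 0.34 with the SMC2 hairpins. A difference from autosomal very long genes was not tested. Shorter genes of the X chromosome were not compared, so a change of the whole chromosome and one of its very long genes cannot be told apart.

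The members given only as group values (5 expressed genes of adhesion, cohesin and Mediator families) spread from -1.42 to 2.24 in log2 change with SMC1, with 2 up and 2 down by at least 1 log2 unit, and from -0.22 to 0.78 with CAPH2.

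The matched difference with SMC1 was uneven over chromosomes. Its median was between 0.29 and 0.36 on chromosomes 1, 3, 10 and 15 and between -0.096 and -0.067 on chromosomes 11, 13, 17 and 18, with 11 to 28 expressed members on each autosome. Chromosome 18 held the highest share of very long genes, at 9.02% of its genes. These medians have no replicate check.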
